A study of Mus musculus with 4 samples.

Results

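The comparison described here sets colon epithelial cells that carry deletions of both Bmi1 and Mel18 against the mean of the cells that carry either deletion alone. It rests on 3 of the 4 arrays of the series, 1 per genotype: the array labelled DKO (genotype label Bmi1ΔIEC Mel18ΔIEC), the array labelled Bmi1ΔIEC and the array labelled Mel18ΔIEC. All 3 came from C57BL/6 mice 6 to 8 weeks old that had received azoxymethane, a colon carcinogen, at 10 mg/kg, and 5 days later dextran sulfate sodium, which injures the colonic lining, at 3.5% in the drinking water for 5 days. Cells were released from the opened colon with EDTA on day 12 and were not described as sorted. The WT array was left out because it carries transcripts of the seminal vesicle. The labels and protocols do not name the Cre driver, the exons removed or the number of mice behind each array, nor say whether mice were pooled. For each gene the log2 intensity on DKO minus the mean log2 intensity of both single deletions was taken, and it is called the difference below. Of 19946 genes with a symbol of their own, 12441 read at least 6 on the log2 scale on the highest of the 3 arrays and were analysed. With 1 array per genotype no difference has a replicate check and none was tested; it is the number of arrays that sets the precision. DKO, Bmi1ΔIEC and Mel18ΔIEC stand throughout for the arrays labelled so.

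BMI1 and MEL18 are alternative subunits of Polycomb repressive complex 1, which binds chromatin, ubiquitinates histone H2A through RING1 or RNF2 and keeps developmental genes and the Cdkn2a locus silent in many tissues. Mel18 is the older name of the gene Pcgf2. The colonic lining is renewed from stem cells at the crypt base, whose progeny divide, stop and mature into absorptive colonocytes, mucus-making goblet cells, hormone-secreting enteroendocrine cells and chemosensory tuft cells. After chemical injury, surviving epithelium covers the wound while neutrophils and monocytes enter the mucosa.

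The deleted genes did not separate the arrays. Bmi1 read 7.64 on DKO, 7.43 on Bmi1ΔIEC, 6.999 on Mel18ΔIEC and 7.25 on WT, so that it was not lowest where its deletion is labelled. Pcgf2 read 6.81 on DKO, 6.72 on Bmi1ΔIEC, 6.84 on Mel18ΔIEC and 6.96 on WT. Each gene has 1 probe set, which sums probes along the transcript, and it is not known whether the probes lie in the deleted exons, so these values check nothing about the labels. Every direction given below is therefore between arrays as labelled.

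DKO stood apart from both single deletions, which resembled each other. Across the genes analysed, Pearson's r of the log2 intensities was 0.978 between Bmi1ΔIEC and Mel18ΔIEC, 0.904 between DKO and Bmi1ΔIEC and 0.876 between DKO and Mel18ΔIEC. These are correlations across genes, which are not independent replicates. The difference between the single deletions had a scaled median absolute deviation over genes of 0.212. Taken as noise, it corresponds to 0.150 for 1 array and 0.183 for DKO minus the mean of both, for a typical gene. This is a rough scale from 1 pair of arrays and no bound on the error. True differences between the single deletions enter it, while variation particular to the DKO array does not. The scaled median absolute deviation was 0.547 for DKO minus the mean of both single deletions.

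A 2-fold excess of DKO over the mean of both single deletions was found for 918 genes (7.38% of those analysed), and a 2-fold deficit for 814 (6.54%). Large differences lay mainly on the higher side: 245 genes passed 4-fold on that side and 25 on the lower one, while 44 and 5 passed 8-fold. Counting only genes beyond each single deletion by at least 2-fold left 683 higher (5.49%) and 647 lower (5.2%). By comparison, Bmi1ΔIEC was at least 2-fold above Mel18ΔIEC for 191 genes (1.54%) and below it for 28 (0.225%). The median difference of all genes analysed was -0.07. Centring each array on its median moved this to 0.06, and the genes lower by 2-fold then numbered 550 against 1087 higher, so that 66.4% of the calls lay on the higher side in place of 53%. Cyclic loess gave 68.0%. Of the 918 higher genes 146 read under 6 on both single deletions, and of the 814 lower genes 68 read under 6 on DKO. These entered the comparison through the array on which they were brighter and could differ in 1 direction only. The list counts below include such genes, among them Dclk1, Ces3b, Tlr8 and Cldn1, which read under 6 on both single deletions.

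**Figure D1:**
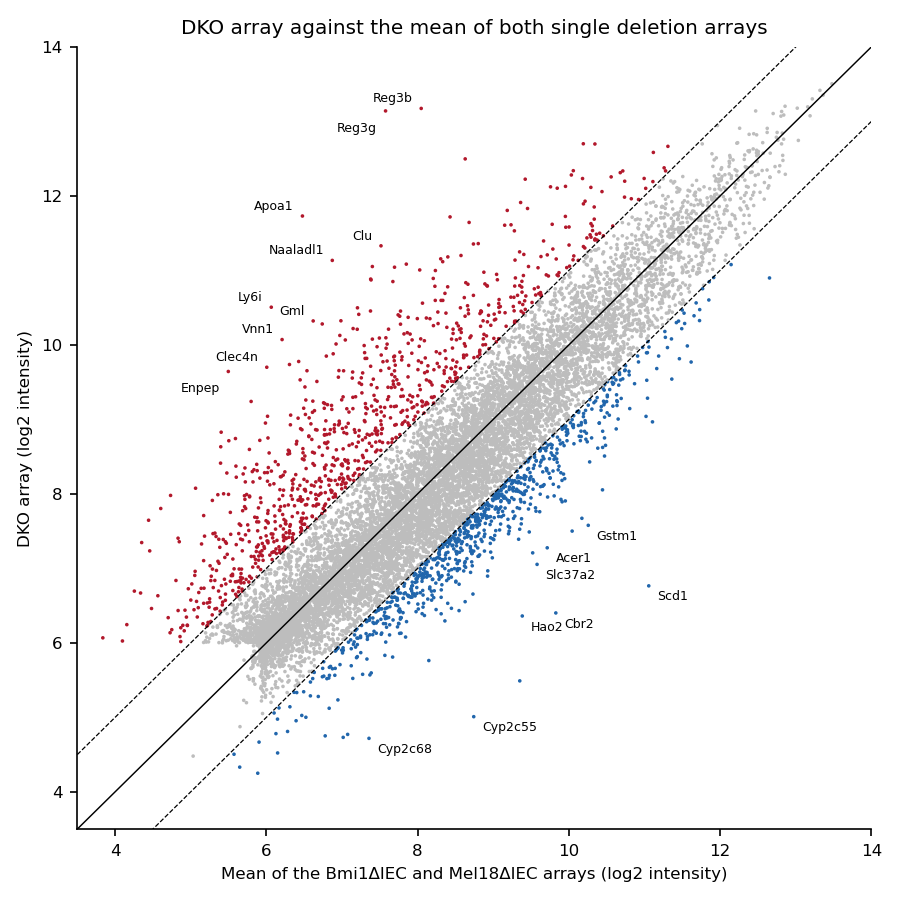
Log2 intensity on DKO (vertical) against the mean log2 intensity of Bmi1ΔIEC and Mel18ΔIEC (horizontal) for the 12441 genes analysed. The solid line marks equal values and the dashed lines 2-fold; red points are the 918 higher genes, blue points the 814 lower genes, and 18 genes with large differences are named.

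The isolate kept its epithelial character on all 3 arrays. Among 30 genes expressed across gut epithelium, 0 exceeded the single deletions by 1.5-fold on DKO and 2 fell short by as much. Their median difference was 0.01. Over all genes analysed, 14.1% were higher and 18.9% lower by this measure. These shares were 18% and 14.3% after median centring and 17.9% and 14.1% after cyclic loess. Against Bmi1ΔIEC alone they were 14.5% and 17.7%, and against Mel18ΔIEC alone 14.2% and 20.9%. Epcam, an adhesion protein of epithelial cells, read 12.38 on DKO, 12.05 on Bmi1ΔIEC and 11.99 on Mel18ΔIEC. Krt18, a keratin of simple epithelium, read 11.52, 11.51 and 11.51 in the same order. The summed intensity of the 30 genes on DKO was 1.03 times the mean of the single deletions.

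Transcripts of leukocytes were higher on DKO beside this level epithelial signal. Ptprc, which encodes the pan-leukocyte protein CD45, read 9.96 on DKO, 7.94 on Bmi1ΔIEC and 7.23 on Mel18ΔIEC, a difference of 2.37. The summed intensity of 38 mononuclear phagocyte genes on DKO was 3.77 times the single deletion mean and that of 30 neutrophil genes was 2.11 times. In RNA from a mixed isolate, more cells of a type and more RNA per cell cannot be told apart. The part of these cells in the gene groups that follow was not tested.

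Antimicrobial and lipoprotein genes led the higher side. Reg3g, a secreted lectin that kills Gram-positive bacteria, read 13.14 on DKO, 7.64 on Bmi1ΔIEC and 7.52 on Mel18ΔIEC, a 47.4-fold difference. Reg3b, a related lectin, read 13.18, 7.77 and 8.33, which is 35.0-fold. On both single deletions this pair lay far below DKO. Apoa1, a lipoprotein component secreted by small bowel enterocytes, read 11.73 on DKO, 6.40 on Bmi1ΔIEC and 6.56 on Mel18ΔIEC (38.1-fold).

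Brush border enzymes and injury genes followed. Naaladl1, a dipeptidase of the absorptive surface, read 11.13 on DKO, 6.63 on Bmi1ΔIEC and 7.12 on Mel18ΔIEC. Enpep, the aminopeptidase that trims angiotensin, read 9.64, 5.18 and 5.81. Vnn1, a pantetheinase, read 10.07, 5.93 and 6.48. For all 3 enzymes Mel18ΔIEC lay between the other arrays. Tm4sf5, a tetraspanin-like membrane protein, read 11.05 on DKO, 7.49 on Bmi1ΔIEC and 7.31 on Mel18ΔIEC. Clu, the secreted chaperone clusterin and a marker of regenerating gut epithelium, read 11.33, 7.95 and 7.08. Gml, a relative of the Ly6 surface proteins, read 10.32, 6.17 and 7.07.

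The remaining genes among the 15 highest were myeloid or interferon-induced, and here the single deletions were unequal. Ly6i, a surface protein found on myeloid cells, read 10.51 on DKO, 6.70 on Bmi1ΔIEC and 5.43 on Mel18ΔIEC. Clec4n, which encodes the fungal receptor dectin-2, read 9.70, 6.45 and 5.56. Fcgr4, an Fc receptor, read 10.28, 7.46 and 6.02. In this set Bmi1ΔIEC lay between the other arrays for every gene. Ifi205, an interferon-induced member of the DNA sensor family, read 10.88, 7.87 and 6.89. Ms4a6d, a tetraspanning protein of macrophages, read 10.87, 8.34 and 6.42. Olr1, a scavenger receptor for oxidised lipoprotein, read 9.24, 6.49 and 5.11. Reg3, Ly6, Ifi200 and Cyp2c genes have close relatives, and probes of one member may also read another.

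**Figure D2:**
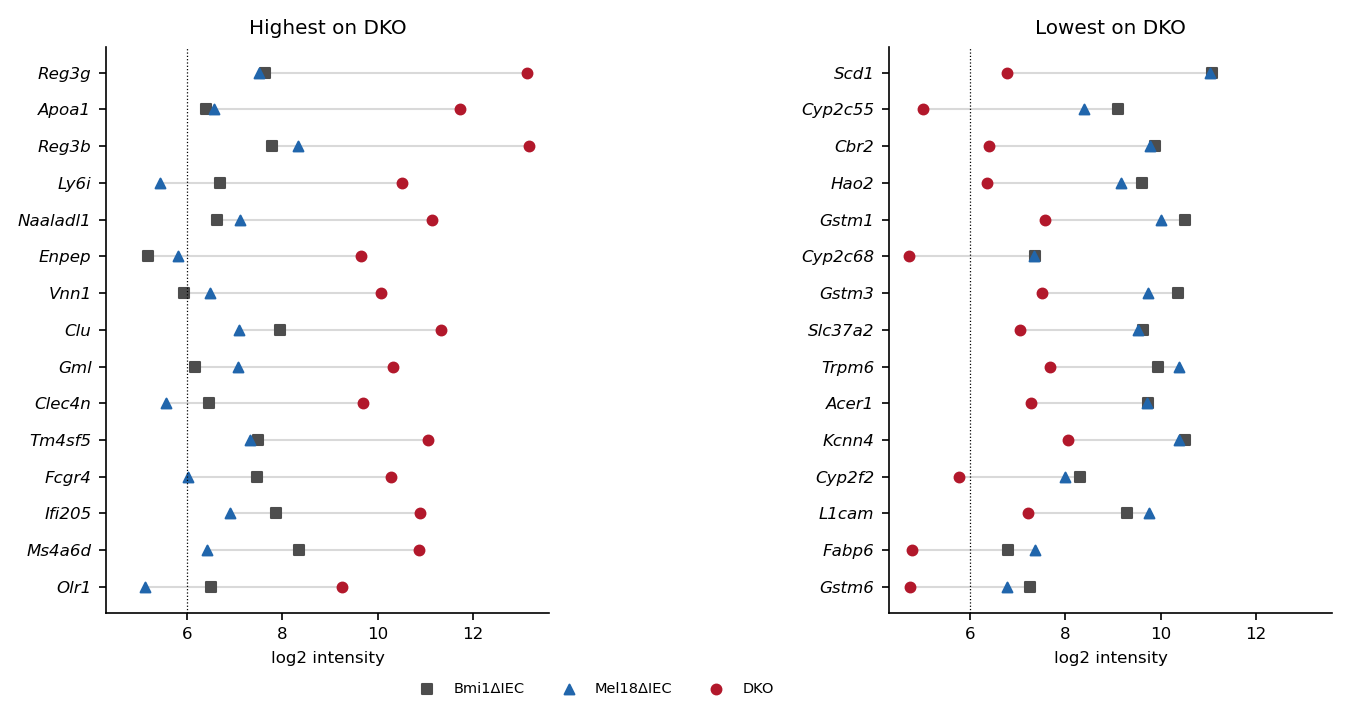
Log2 intensity of the 15 highest and 15 lowest genes on DKO (circles), Bmi1ΔIEC (squares) and Mel18ΔIEC (triangles), among genes at least 2-fold beyond each single deletion. The dotted line is the floor of 6; the single deletions lie close together for Reg3g, Apoa1 and Scd1 and apart for Ly6i, Ms4a6d and Olr1.

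On the lower side, lipid and xenobiotic enzymes led. Scd1, the desaturase that makes oleate from stearate, read 6.77 on DKO, 11.07 on Bmi1ΔIEC and 11.04 on Mel18ΔIEC, a 19.6-fold difference. Cyp2c55, a colonic cytochrome P450, read 5.01, 9.11 and 8.38, which is 13.3-fold, with DKO under the floor. Cbr2, a carbonyl reductase, read 6.40, 9.88 and 9.77. Hao2, a peroxisomal oxidase of hydroxy acids, read 6.36, 9.61 and 9.16. These 4 passed 8-fold, as did the unnamed gene model 2310079G19Rik (-3.86), which the rule for named genes left out of the ranking; on the higher side it left out 2210407C18Rik (3.87).

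Of the other 11, 5 more process foreign compounds. Gstm1, a glutathione transferase, read 7.58 on DKO, 10.50 on Bmi1ΔIEC and 10.01 on Mel18ΔIEC. Its relatives Gstm3 (7.50, 10.36 and 9.73) and Gstm6 (4.73, 7.25 and 6.78) stood in the same order. Cyp2c68 and Cyp2f2, both cytochromes P450, were 6.23-fold and 5.23-fold lower and read under 6 on DKO. Transport genes made up another part of the list. Trpm6, the magnesium channel of the colon, read 7.67, 9.95 and 10.39. Kcnn4, a calcium-activated potassium channel that drives secretion, read 8.05, 10.51 and 10.38. Slc37a2, a sugar phosphate exchanger, read 7.05, 9.63 and 9.53. Fabp6, the bile acid binding protein of the ileum, read 4.77, 6.80 and 7.35. Acer1, a ceramidase, was 5.42-fold lower and L1cam, a cell adhesion molecule, 4.97-fold lower.

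Nearly every cell division gene had its lowest value on DKO. Of 57 measured genes of DNA replication and origin licensing 47 lay at least 1.5-fold below the single deletions and 0 above them; their median difference was -0.999, against -0.07 over all genes. Of 81 genes of mitosis and the spindle 73 lay below and 0 above, and their median was -1.16. All 81 read lower on DKO than on both single deletions, as did 56 of the 57 replication genes; over all genes this held for 48.8%. The medians were almost the same against each single deletion, -1.10 and -1.21 for mitosis and -0.96 and -1.04 for replication, with Bmi1ΔIEC first. Mki67, the proliferation antigen, read 9.89 on DKO, 10.99 on Bmi1ΔIEC and 11.06 on Mel18ΔIEC.

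Among replication genes, the polymerase subunit Pold2 read 7.91 on DKO, 9.92 on Bmi1ΔIEC and 9.99 on Mel18ΔIEC, and thymidine kinase Tk1 read 7.22, 9.03 and 8.90. Mcm5, a subunit of the replicative helicase, read 8.18, 9.94 and 9.88. The GINS subunit Gins1 had a difference of -1.70 and the leading-strand polymerase Pole one of -1.67. Pold3 was the sole replication gene above both single deletions, by 0.13 over their mean. Among mitotic genes, Racgap1, which organises the central spindle, read 7.49, 9.53 and 9.42. The kinesin Kif22 read 6.39, 8.23 and 8.39. Iqgap3 differed by -1.87, Cdc20, the activator of the anaphase-promoting complex, by -1.85, and the mitotic kinase Plk1 by -1.82. Even the smallest difference of the mitotic list, that of the kinetochore protein Ndc80, was -0.48.

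Promoters are shown for the strongest member of each group whose upstream bases hold letters known from such genes. The sequences are the 250 bases before the transcription start in RefSeq, build GRCm38.p6, read 5′ to 3′ on the gene's strand, and genes with 1 listed start were used. In mitotic genes the letters searched were TTTGAA (the cell cycle homology region) and CCAAT (the NF-Y box), on both strands; the opposite strand reads TTCAAA and ATTGG. Of the 81 mitotic genes 63 had 1 start, and 23 of them held TTTGAA (36.5%), 40 held CCAAT (63.5%) and 18 held both (28.6%). Of all 22862 promoters with 1 start 16.7%, 34.7% and 5.82% did. For the helicase gene the letters were TTTNNCGC (E2F), found in 9 of 42 replication promoters (21.4%) and in 4.44% of all promoters. Among promoters of the genes analysed, TTTGAA was found in 10.6%, CCAAT in 36.0% and TTTNNCGC in 7.40%. Capitals mark these letters. The matches describe the letters and say nothing of which factor was bound. The Kif22 promoter lies at chr7:127042421-127042670 on the minus strand and that of Mcm5 at chr8:75109259-75109508 on the plus strand, where 2 E2F matches overlap.
Kif22: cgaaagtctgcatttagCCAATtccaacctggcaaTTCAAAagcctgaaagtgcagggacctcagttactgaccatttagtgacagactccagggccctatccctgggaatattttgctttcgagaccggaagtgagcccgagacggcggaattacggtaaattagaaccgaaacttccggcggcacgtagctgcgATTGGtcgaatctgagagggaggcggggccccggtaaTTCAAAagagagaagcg
Mcm5: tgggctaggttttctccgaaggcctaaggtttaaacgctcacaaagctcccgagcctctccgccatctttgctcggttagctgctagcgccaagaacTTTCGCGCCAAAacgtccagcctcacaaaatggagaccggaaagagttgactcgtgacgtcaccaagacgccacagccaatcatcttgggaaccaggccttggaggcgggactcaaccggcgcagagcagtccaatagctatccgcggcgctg

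DNA repair genes shared the direction with smaller values. Of 35 genes 20 were lower and 0 higher (median -0.65). Apex1, the abasic site endonuclease, read 7.01 on DKO, 8.57 on Bmi1ΔIEC and 8.70 on Mel18ΔIEC. The Fanconi anaemia genes Fancb and Fancd2 differed by -1.44 and -1.09, the checkpoint kinase Chek1 by -1.16, and Rad18 by -1.34. Cell cycle inhibitors mostly read higher without passing 1.5-fold. Of 16 genes 3 were higher and 1 lower (median 0.36), with 7 higher after either rescaling and 5 against Bmi1ΔIEC alone. Of all genes 14.1% were higher, 18% after median centring, 17.9% after cyclic loess and 14.5% against Bmi1ΔIEC alone. Ccng2, an atypical cyclin found in arrested cells, read 10.67, 9.52 and 9.60, and Btg2, an antiproliferative factor, 10.56, 9.50 and 9.66. Cdkn2c, an inhibitor of CDK4 and CDK6, stood against them at 6.31, 7.51 and 7.84. Cdkn2a, which Polycomb keeps silent in many cells, read 6.22, 6.10 and 5.99, near the floor on all 3 arrays. Of 19 genes that p53 activates 7 were higher and 2 lower (median 0.09), led by the death factor Pmaip1 at 9.80, 7.71 and 7.87.

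Genes of protein and energy production were lower on DKO as well. Of 42 genes of ribosome biogenesis 39 were lower and 0 higher (median -1.08). The nucleolar factor Mrto4 read 6.95 on DKO, 8.64 on Bmi1ΔIEC and 8.76 on Mel18ΔIEC. Srm, the spermidine synthase, read 8.75, 10.53 and 10.41. Polr1b, a subunit of RNA polymerase I, had a difference of -1.54, Bysl one of -1.55 and Grwd1 one of -1.52. Npm1, which carries ribosomal subunits out of the nucleus, read 10.51, 10.86 and 10.41 and was the gene of this list with the smallest difference.

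The mitochondrial translation and respiratory lists were lower as well. Of 76 mitochondrial ribosomal proteins 61 were lower and 0 higher (median -0.84); Mrps28 read 7.16 on DKO, 8.64 on Bmi1ΔIEC and 8.96 on Mel18ΔIEC. Of 76 respiratory chain genes 47 were lower and 0 higher (median -0.63). Cyc1, the cytochrome of complex III, read 9.96, 11.24 and 11.36, and Uqcrc1, of the same complex, 10.43, 11.54 and 11.51. For aminoacyl-tRNA synthetases the lower ones numbered 18 of 25, with 0 higher (median -0.84); Vars stood at 8.30, 9.61 and 9.70. Cytosolic ribosomal proteins, measured through 58 genes, were lower in 26 and higher in 0 (median -0.57), a count that became 12 after median centring and 20 after cyclic loess. Proteasome subunits differed least of these lists, with 5 of 42 lower and 0 higher (median -0.42), or 10 lower against Mel18ΔIEC alone and 3 after median centring. The first and last counts are a smaller share than among all genes, of which 18.9% were lower, or 14.3% after median centring. Against Mel18ΔIEC alone 20.9% of all genes were lower.

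**Figure D3:**
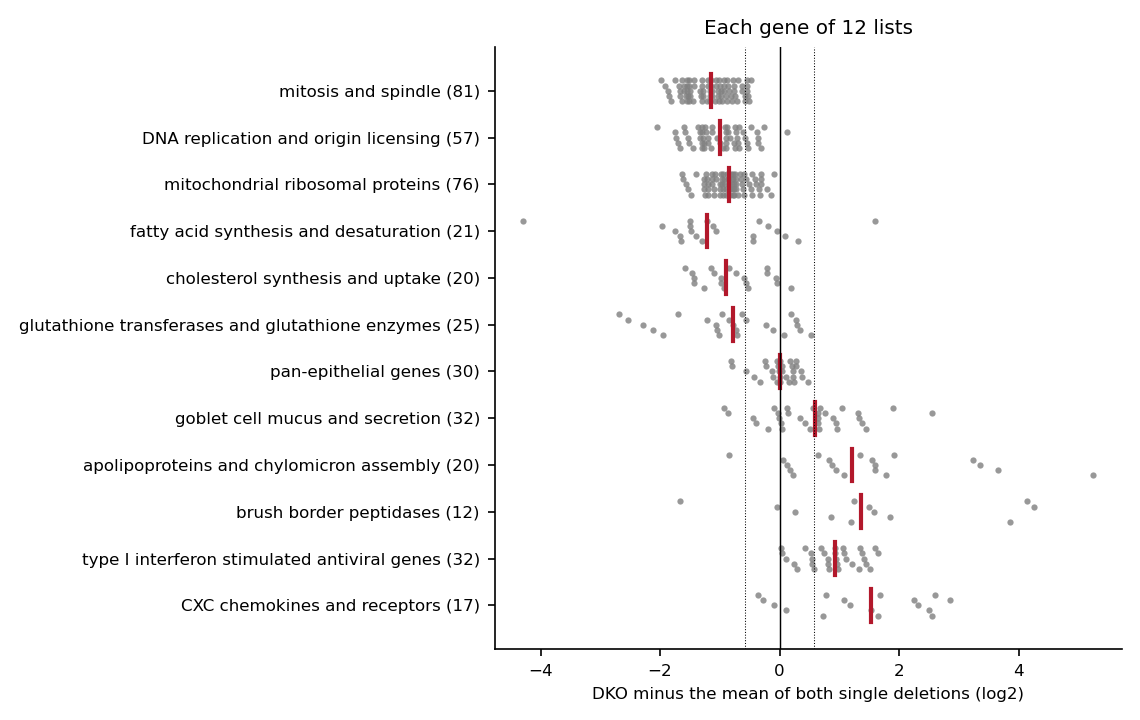
Difference in log2 intensity between DKO and the mean of both single deletions for each measured gene (grey points) of 12 lists, with the list's median (red bar) and the number of genes in brackets. Dotted lines mark 1.5-fold; all 81 mitotic genes lie left of 0, and the pan-epithelial genes centre on 0.01.

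Lipid synthesis was lower at most steps on the array labelled DKO. In fatty acid synthesis and desaturation 13 of 21 genes fell short by 1.5-fold or more, and 1 exceeded it (median -1.21). Fads1, the delta-5 desaturase, read 6.97 on DKO, 8.77 on Bmi1ΔIEC and 9.08 on Mel18ΔIEC. Scd2, a second stearate desaturase, read 10.90, 12.64 and 12.67. Fasn, which assembles palmitate, read 9.01, 10.41 and 10.90, and Acss2, which makes acetyl-CoA from acetate, 8.13, 9.83 and 9.76. The exception was Me1, the malic enzyme that supplies NADPH, at 8.39, 6.74 and 6.84. Fatty acid oxidation and ketogenesis genes differed less. Of 27 genes 8 were lower and 2 higher (median -0.30), and 5 were lower after median centring. Hao2 was the lowest of them, followed by the ketone dehydrogenase Bdh1 (8.84, 10.22 and 10.10), while Pdk4, a brake on pyruvate oxidation, was higher (7.43, 5.27 and 5.40).

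Cholesterol synthesis stood on the same side. Of 20 measured genes 13 were lower and 0 higher (median -0.89). Mvk, mevalonate kinase, read 7.44 on DKO, 8.95 on Bmi1ΔIEC and 9.09 on Mel18ΔIEC. Lss, which closes the sterol rings, read 7.89, 9.25 and 9.49, and Dhcr7, the last reductase of the pathway, 8.72, 10.03 and 10.28. Mvd differed by -1.43 and Nsdhl by -1.26. Not every step was lower: Sc5d read 10.71, 10.35 and 10.69, Idi1 read 9.85, 9.96 and 9.82, and Msmo1 read 11.52, 11.47 and 11.70. All 14 promoters of this list with 1 start held CCAAT, against 34.7% of all promoters, and 1 of the 14 held TCACNCCAC (a sterol regulatory element) against 0.993%. In the fatty acid list 6 of 13 held CCAAT (46.2%) and 0 held TCACNCCAC. The promoter shown is that of Mvk, the gene of this list with the largest difference. It carries 5 copies of CCAAT, in capitals, 4 of them as ATTGG. It lies at chr5:114444019-114444268 on the plus strand.
Mvk: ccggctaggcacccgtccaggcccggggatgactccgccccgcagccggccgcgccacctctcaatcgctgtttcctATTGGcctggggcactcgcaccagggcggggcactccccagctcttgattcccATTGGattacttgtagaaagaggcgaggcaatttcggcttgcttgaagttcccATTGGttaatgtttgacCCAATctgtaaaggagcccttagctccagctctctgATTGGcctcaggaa

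Enzymes that handle foreign compounds split by family. Of 25 glutathione transferases and glutathione enzymes 16 fell short by 1.5-fold or more and 0 exceeded it (median -0.78). Beside the Gstm genes above, Gsta3 read 6.43 on DKO, 8.73 on Bmi1ΔIEC and 8.36 on Mel18ΔIEC and Gstm2 read 7.39, 9.48 and 9.20. Gstk1, of mitochondria and peroxisomes, read 11.64, 11.14 and 11.08. Cytochromes P450 and related oxidoreductases had no common direction, with 10 of 41 higher, 14 lower and a median of 0.02. Cyp2c55, Cbr2 and Cyp2c68 were lowest, while Cyp4f18 (9.24, 8.08 and 6.85), Cyp2d10 (8.78, 6.81 and 7.64) and Cyp2d26 (8.92, 7.59 and 7.81) were higher. Among 17 conjugating enzymes and carboxylesterases 7 were higher and 4 lower (median 0.43). The 7 higher ones were all carboxylesterases, led by Ces3b (6.46, 4.33 and 4.63), Ces2f (9.26, 6.90 and 7.97) and Ces2a (9.53, 7.77 and 8.46). The lower ones were transferases, led by Ugt2b35 (4.81, 6.71 and 5.85), Sult1a1 (6.85, 8.45 and 8.12) and Ugt2b34 (10.22, 11.45 and 11.53).

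Absorption and secretion of salt and water were lower for part of their genes. Of 29 genes of colonic absorption 12 were lower and 2 higher (median -0.52). Below Slc37a2 and Trpm6 came Slc26a3, the chloride and bicarbonate exchanger of surface colonocytes, which read 9.99 on DKO, 11.44 on Bmi1ΔIEC and 11.69 on Mel18ΔIEC. Hsd11b2, which shields the mineralocorticoid receptor from glucocorticoids, read 10.39, 11.70 and 11.62, and Aqp11 read 7.05, 8.21 and 8.30. The kinase Sgk1 (9.71, 9.12 and 8.79) and the sodium exchanger Slc9a3 (11.03, 10.30 and 10.45) were the 2 higher genes. Car1 and Car4, carbonic anhydrases that mark colonocytes, read 12.05 and 12.84 on DKO, 12.47 and 12.33 on Bmi1ΔIEC and 12.59 and 12.56 on Mel18ΔIEC. Of 15 secretion genes 6 were lower and 3 higher (median -0.33). Below Kcnn4 stood the potassium channel Kcnq1 (7.52, 9.12 and 9.05), the bicarbonate channel Best2 (7.99, 9.54 and 9.29), Ano1 (9.29, 10.29 and 10.46) and Cftr (7.84, 8.91 and 8.79). The nucleotide receptor P2ry4 was higher, at 8.18, 6.18 and 6.50.

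Genes typical of small bowel absorption were higher on DKO, yet not the whole set. Of 12 brush border peptidase genes 9 were higher and 1 lower (median 1.37), of 18 genes of sugar, amino acid and nutrient uptake 11 were higher and 0 lower (1.00), and of 20 genes of apolipoproteins and chylomicron assembly 15 were higher and 1 lower (1.21). Mttp, which loads lipid onto apolipoprotein B, read 9.78 on DKO, 6.29 on Bmi1ΔIEC and 6.57 on Mel18ΔIEC. Apob itself read 11.08, 7.18 and 8.52, and Creb3l3, a regulator of apolipoprotein genes, 8.55, 6.55 and 6.72. Alpi, the intestinal alkaline phosphatase, read 9.51, 6.14 and 7.20. The sterol exporters Abcg5 (10.69, 7.99 and 8.73) and Abcg8 (9.66, 6.73 and 7.19) and the nucleoside carrier Slc28a2 (8.28, 5.78 and 5.18) were higher too.

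Other defining genes of the small bowel had no common direction. Apoa4, a further apolipoprotein gene, was higher on DKO, at 8.13 against 6.44 on Bmi1ΔIEC and 6.26 on Mel18ΔIEC. The disaccharidase genes Sis (4.29, 3.55 and 3.63 on DKO, Bmi1ΔIEC and Mel18ΔIEC) and Lct (5.20, 5.32 and 5.31) stayed under the floor. Fabp2, the fatty acid binding protein of enterocytes, read 7.34, 7.49 and 7.41, and the ileal Fabp6 was lower. Slc10a2, the ileal bile acid importer, was nevertheless higher (9.82, 6.93 and 7.69). Slc5a1, the glucose carrier, read 10.18, 10.48 and 10.70 and Slc6a20a, a proline carrier, 7.73, 8.23 and 8.36. Dpep1, a dipeptidase, was the lower peptidase (8.27, 9.82 and 10.04). Gata4, a factor that sets proximal identity in the intestine, read 8.93, 6.46 and 6.17, and Cdx1, a hindgut factor, 8.21, 9.40 and 9.57, among 27 regional factors of which 8 were higher and 4 lower (median 0.03). Osr2 (7.10, 5.49 and 5.23) and Prdm1 (9.25, 7.88 and 8.23) were also higher. Of 7 genes of bile acid transport and its receptors 1 was higher and 2 lower (median 0.12). Of 19 retinoid genes 3 were higher and 6 lower (median -0.15), or 5 and 4 after either rescaling, with medians of -0.02 after centring and 0.04 after cyclic loess; Retsat was lowest (-1.55) and Rdh10, which makes retinal, highest (1.70).

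Secretory lineages read higher on DKO while stem cell genes were split. Of 32 goblet cell genes 16 were higher and 2 lower (median 0.60). Muc2, the main mucin of the colon, read 13.20 on DKO, 12.88 on Bmi1ΔIEC and 12.84 on Mel18ΔIEC, and Tff3, a trefoil peptide, 13.14, 12.42 and 12.52. The largest difference belonged to the membrane mucin Muc1 (11.36, 8.54 and 9.06), followed by Fer1l6 (9.21, 7.17 and 7.45). Creb3l1 (9.40, 10.32 and 10.35) and Slc12a8 (8.37, 9.36 and 9.11) were the 2 lower genes. Of 20 enteroendocrine genes 9 were higher and 1 lower (median 0.43). The prohormone processing enzyme Cpe read 10.89, 7.76 and 8.65, the hormone Cck 8.30, 6.20 and 6.29, and Tph1, the first enzyme of serotonin synthesis, 9.48, 7.87 and 7.64. Neurog3, the transient factor that starts this lineage, was the 1 lower gene (5.60, 7.42 and 7.35).

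Tuft cells left little signal. Of 24 listed genes 12 were analysed, 5 of them higher and 0 lower, or 3 higher against Bmi1ΔIEC alone. Dclk1 read 6.53 on DKO, 5.36 on Bmi1ΔIEC and 4.98 on Mel18ΔIEC, while the defining genes Trpm5 and Pou2f3 read under 6 on all 3 arrays. The highest genes of that list, Fyb (8.88, 6.95 and 5.95) and Alox5ap (10.98, 10.50 and 7.25), are also expressed by leukocytes.

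Of 29 genes of the crypt base and of Wnt signalling 11 were lower and 5 higher (median -0.27). Lrig1, a brake on growth factor receptors in stem cells, read 7.93 on DKO, 9.79 on Bmi1ΔIEC and 10.00 on Mel18ΔIEC. Ascl2, the transcription factor of crypt base stem cells, read 5.83, 7.89 and 7.24, Myb 7.67, 9.43 and 9.32, and Lgr5, the R-spondin receptor that marks these cells, 6.29, 7.98 and 7.73. On the other side stood Id2 (10.79, 10.17 and 8.40), Igfbp4 (8.81, 7.63 and 7.27) and Prom1 (11.34, 9.93 and 10.07). Wnt ligands and antagonists were dim, with 11 of 30 analysed, 1 higher and 0 lower.

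Genes of repairing and fetal-like epithelium were higher in 18 of 36 cases and lower in 2 (median 0.59). After Clu came Ly6d (11.72 on DKO, 8.19 on Bmi1ΔIEC and 8.66 on Mel18ΔIEC), the alarmin Il33 (10.09, 7.79 and 7.20), the pore-forming Gsdma (8.14, 5.92 and 6.28) and Serpinb2 (7.36, 6.24 and 4.67). Gsdmc2 was lower (10.29, 11.64 and 11.42). For squamous genes of the anal canal the lower ones numbered 5 of 13, with 1 higher, and their median of -0.35 was -0.69 against Bmi1ΔIEC and -0.14 against Mel18ΔIEC. The basal keratin Krt5 read 5.82, 8.05 and 6.36 and Krt14 read 6.41, 7.96 and 7.17, so Bmi1ΔIEC was the high array for both. The higher gene was the desmosomal Dsg3. Among 25 claudin and tight junction genes 9 were higher and 2 lower (median 0.15); Cldn1 read 6.70, 4.42 and 4.09, and Cldn15, a sodium pore of the crypt, 7.09, 8.73 and 8.71.

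**Figure D4:**
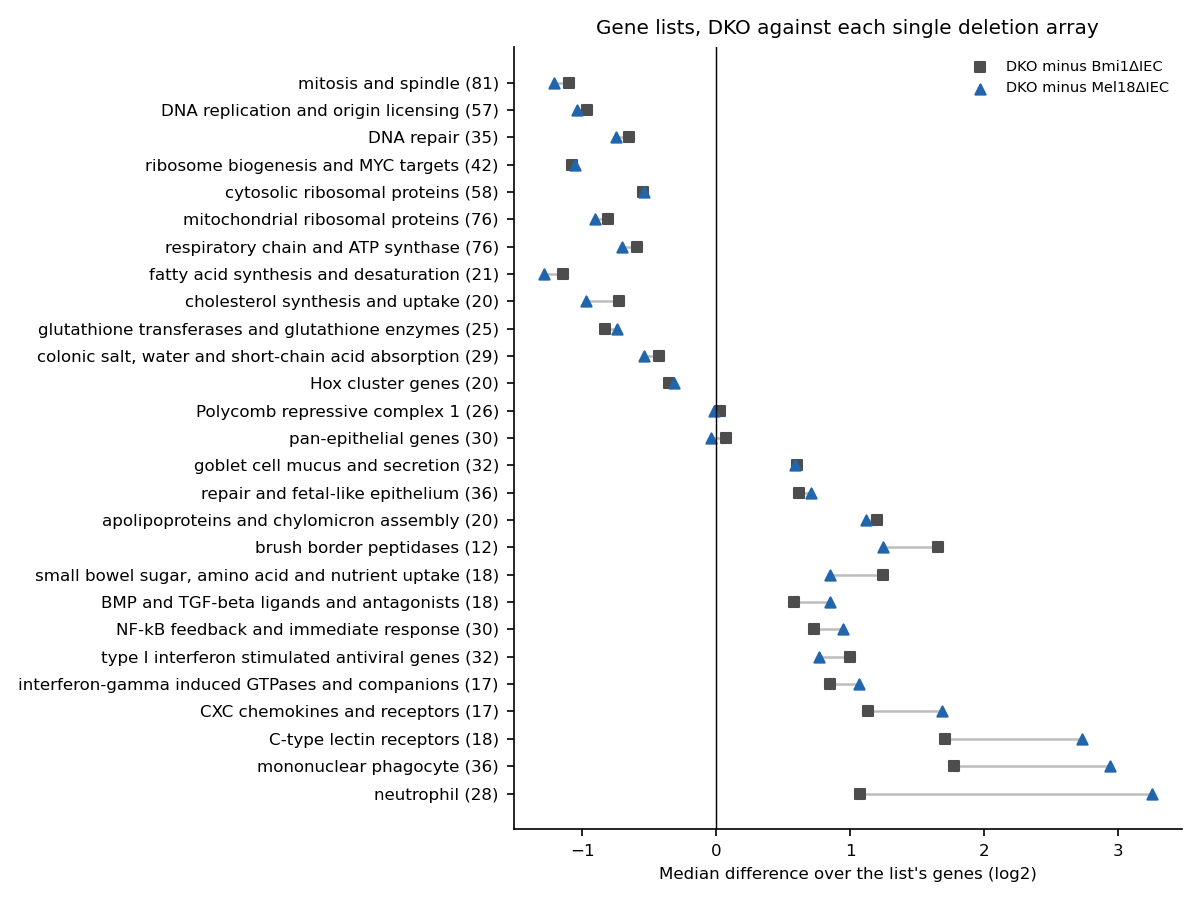
Median difference in log2 intensity over the measured genes of 27 lists, as DKO minus Bmi1ΔIEC (squares) and DKO minus Mel18ΔIEC (triangles), with the number of genes in brackets. The marks lie close together for division and biosynthesis lists and far apart for the neutrophil list, at 1.08 and 3.25.

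Growth factor genes followed no single pattern. Of 18 BMP and TGF-beta family genes 11 were higher and 0 lower (median 0.71). Inhba, a subunit of activin A, read 10.21 on DKO, 7.97 on Bmi1ΔIEC and 6.43 on Mel18ΔIEC. Bmp3 read 9.12, 6.81 and 6.46, and Bmp2, made by differentiated colonocytes, 10.61, 8.85 and 9.31. Bmp8b differed by 1.22 and Bmp5 by 1.12. Of 12 EGF family genes 4 were higher and 0 lower (median 0.35): the ligands Nrg1 (8.73, 6.81 and 6.40) and Ereg (7.69, 6.46 and 6.75), the receptor Egfr (11.04, 9.98 and 9.96) and its feedback inhibitor Errfi1 (11.20, 10.31 and 10.15).

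Of 26 antimicrobial genes, the Reg3 pair included, 13 were higher and 2 lower (median 0.64), and the median was 0.51 against Bmi1ΔIEC and 0.53 against Mel18ΔIEC. Saa3, an acute phase protein, read 11.81 on DKO, 10.87 on Bmi1ΔIEC and 7.50 on Mel18ΔIEC, so that its difference of 2.62 was 0.94 against Bmi1ΔIEC alone. Lcn2, which withholds iron from bacteria, read 12.70, 11.79 and 8.59, with 0.91 against Bmi1ΔIEC alone. Nos2, the inducible nitric oxide synthase, read 12.26, 10.19 and 10.93 and stood above both. The lower ones were Pla2g2a, a secreted phospholipase that attacks bacteria (8.43, 10.24 and 10.31), and the endotoxin binding protein Lbp (8.05, 8.75 and 9.46). Of the 17 promoters of this list with 1 start 2 held TTCNNNGAA (a STAT site, 11.8%), against 7.23% of all promoters. That of Reg3b, the gene of this list with the largest difference to hold it, is at chr6:78370635-78370884 on the plus strand, with the letters in capitals.
Reg3b: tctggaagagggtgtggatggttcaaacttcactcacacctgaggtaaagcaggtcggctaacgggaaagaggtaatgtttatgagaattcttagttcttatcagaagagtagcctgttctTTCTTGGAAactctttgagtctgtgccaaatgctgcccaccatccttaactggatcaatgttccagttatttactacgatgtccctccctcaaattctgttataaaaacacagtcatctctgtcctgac

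Oxidant enzymes of the epithelium went both ways. Of 13 genes 6 were higher and 2 lower (median 0.46). Nox1, the colonic NADPH oxidase, read 8.97 on DKO, 11.10 on Bmi1ΔIEC and 11.12 on Mel18ΔIEC, and its activator Noxa1 7.34, 8.45 and 8.28. Duox2, the inducible oxidase of the gut surface, read 12.38, 11.04 and 11.48. The phagocyte oxidase genes Cybb (11.12, 8.92 and 7.75) and Ncf1 (9.47, 7.79 and 6.73) were higher.

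CXC chemokines and receptors were higher in 13 of 17 cases and lower in 0 (median 1.53). The ligands of CXCR3, which attract T cells, were level between the single deletions: Cxcl9 read 11.16 on DKO, 8.31 on Bmi1ΔIEC and 8.30 on Mel18ΔIEC, Cxcl10 read 11.91, 9.57 and 9.16, and Cxcl11 read 8.43, 5.95 and 6.29. The neutrophil receptor Cxcr2 was not, at 10.37, 8.88 and 6.87. The B cell chemokine Cxcl13 read 10.21, 8.05 and 7.18. Ppbp, a platelet chemokine, was highest on Bmi1ΔIEC, at 8.41, 10.18 and 7.38. Of 13 promoters of this list 7 held a wide form of the NF-kB site, in which GGGA and CC stand 4 bases apart on either strand (53.8%), against 17.0% of all promoters and 22.7% of those of the genes analysed. That of Cxcl9 is at chr5:92328080-92328329 on the minus strand, and its match, in capitals, is the reverse complement.
Cxcl9: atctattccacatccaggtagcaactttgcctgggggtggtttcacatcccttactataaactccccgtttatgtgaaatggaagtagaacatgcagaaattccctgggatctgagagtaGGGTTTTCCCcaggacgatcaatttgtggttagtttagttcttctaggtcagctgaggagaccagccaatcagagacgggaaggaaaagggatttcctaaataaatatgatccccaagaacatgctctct

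CC chemokines and receptors were higher in 12 of 19 cases and lower in 0 (median 0.84, or 0.52 against Bmi1ΔIEC alone). Ccl4 read 9.57 on DKO, 7.68 on Bmi1ΔIEC and 6.22 on Mel18ΔIEC, Ccl3 read 12.70, 12.09 and 8.60, and the monocyte receptor Ccr2 8.27, 5.90 and 5.49. Among 20 interleukins and related cytokines 14 were higher and 0 lower (median 1.22). Il1f9, the epithelial cytokine interleukin 36 gamma, read 10.50, 8.31 and 6.10. Ifng, interferon gamma, read 8.74, 5.53 and 5.66, so that both single deletions were under the floor, and Il6 read 7.35, 5.02 and 3.68. Il1a (11.64, 10.30 and 7.07) stood in the order DKO, Bmi1ΔIEC, Mel18ΔIEC. DKO lay above both single deletions for 19 of the 20 genes, against 37.8% of all genes, and Bmi1ΔIEC above Mel18ΔIEC for 15. The median of Bmi1ΔIEC minus Mel18ΔIEC was 0.48 for these genes and -0.03 over all genes. Cytokine receptors were higher in 18 of 32 cases and lower in 0 (median 0.77), led by Csf2rb2 (9.56, 7.85 and 6.43), Csf2rb (10.60, 8.98 and 7.49) and Il7r (8.16, 6.31 and 5.34).

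Targets and feedback genes of NF-kB were higher in 24 of 30 cases and lower in 0 (median 0.92). Tnfaip2 read 10.08 on DKO, 7.94 on Bmi1ΔIEC and 6.86 on Mel18ΔIEC, and Ptgs2, the inducible cyclooxygenase, 11.61, 10.44 and 7.86. Dusp1 (12.06, 11.20 and 9.67), Nfkbie (8.17, 6.94 and 6.52) and Vcam1 (7.29, 5.92 and 5.84) followed. In the TNF family 9 of 28 genes were higher and 1 lower (median 0.39). Tnf itself read 10.53, 8.71 and 8.61, whereas Tnfrsf11a, the receptor RANK, read 8.68, 9.60 and 9.79.

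Interferon-induced genes were higher as a group and differed in how the single deletions ranked. Of 17 genes induced by interferon gamma 13 were higher and 0 lower (median 0.96). The GTPases Gbp5 (9.53 on DKO, 6.30 on Bmi1ΔIEC and 6.59 on Mel18ΔIEC) and Gbp4 (10.46, 7.54 and 7.21) led, with the checkpoint ligand Cd274 at 10.84, 8.80 and 8.48. Irf8 read 9.45, 9.47 and 9.46. Of 32 antiviral genes of the type I response 22 were higher and 0 lower (median 0.92). Rsad2 read 10.22, 8.37 and 8.77, Ifit3 read 10.54, 8.71 and 9.17, and Herc6 read 9.64, 7.87 and 8.38. Bmi1ΔIEC lay above Mel18ΔIEC for 5 of these 32 genes (median of Bmi1ΔIEC minus Mel18ΔIEC -0.27), whereas that median was 0.80 for mononuclear phagocyte and 1.91 for neutrophil genes. Over all genes analysed it was -0.03. MHC class II genes were higher in 4 of 8 cases (median 0.61), with H2-Eb1 at 10.48, 9.38 and 9.47.

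Innate receptors carried large differences. C-type lectin receptors were higher in 12 of 18 cases and lower in 0 (median 2.45). Clec2e, a ligand of natural killer receptors, read 10.32 on DKO, 6.65 on Bmi1ΔIEC and 7.32 on Mel18ΔIEC. Clec5a, Clec4d and Clec4e, all myeloid, read 9.04, 9.88 and 11.01 on DKO, 6.95, 8.12 and 9.36 on Bmi1ΔIEC and 5.09, 5.65 and 6.70 on Mel18ΔIEC. Among Toll-like receptor genes 11 of 16 were higher (median 1.00), with the largest values for Tlr8 (7.36, 5.27 and 4.42) and Tlr13 (9.30, 8.29 and 5.74), while Tlr1 read 9.71, 10.36 and 10.21. Among Schlafen genes 6 of 7 were higher (median 1.52), with Slfn1 at 9.25, 7.08 and 6.15. Complement genes were higher in 11 of 15 cases and lower in 1 (median 1.75), with C3ar1 at 9.10, 7.08 and 6.14 and C1qb at 10.16, 8.11 and 7.62. Among inflammasome and DNA sensor genes 8 of 17 were higher and 2 lower (median 0.53). Nlrp3 (7.95, 6.60 and 5.25) was higher, and the lower ones were Nlrp6, a sensor of gut epithelium (8.81, 10.02 and 9.96), and the adaptor Pycard (8.84, 9.73 and 9.75). Of 18 prostaglandin genes 7 were higher and 3 lower (median 0.01); beside Ptgs2, the synthase Ptges was higher (8.88, 7.80 and 7.09) and Ptges2 lower (6.66, 7.84 and 8.07).

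The mononuclear phagocyte and neutrophil lists had their highest median level on DKO, the next on Bmi1ΔIEC and the lowest on Mel18ΔIEC. Of 36 genes of mononuclear phagocytes 35 were higher and 0 lower (median 2.31), and all 36 read higher on DKO than on both single deletions, against 37.8% of all genes. Csf1r, the receptor of their growth factor, read 9.51 on DKO, 8.01 on Bmi1ΔIEC and 7.35 on Mel18ΔIEC. Adgre1, the F4/80 antigen, read 8.22, 5.62 and 5.58. Of the 38 genes of this list on the array 2 read under 6 on DKO, 6 on Bmi1ΔIEC and 12 on Mel18ΔIEC. Members that passed the floor on DKO alone, as Adgre1 did, could only read higher there. The median of the 36 analysed genes was 1.78 against Bmi1ΔIEC and 2.94 against Mel18ΔIEC.

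Neutrophil genes were higher in 23 of 28 cases and lower in 0, but their median of 2.12 was 1.08 against Bmi1ΔIEC alone and 3.25 against Mel18ΔIEC alone. S100a8, a subunit of calprotectin, read 12.23 on DKO, 11.45 on Bmi1ΔIEC and 8.91 on Mel18ΔIEC, and S100a9, its partner, 12.12, 11.09 and 8.43. Mmp8, the neutrophil collagenase, read 11.04, 9.70 and 5.69. The granule protein gene Ngp read 10.41, 10.09 and 4.35, so that DKO and Bmi1ΔIEC lay close together, whereas for Mmp8 DKO stood 1.35 above Bmi1ΔIEC. Bmi1ΔIEC exceeded Mel18ΔIEC for 26 of the 28 genes, with a median of 1.91 against -0.03 over all genes. Ly6g read 12.79, 12.70 and 12.78 and Cd177 read 10.20, 10.85 and 10.65, and neither followed this order.

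**Figure D5:**
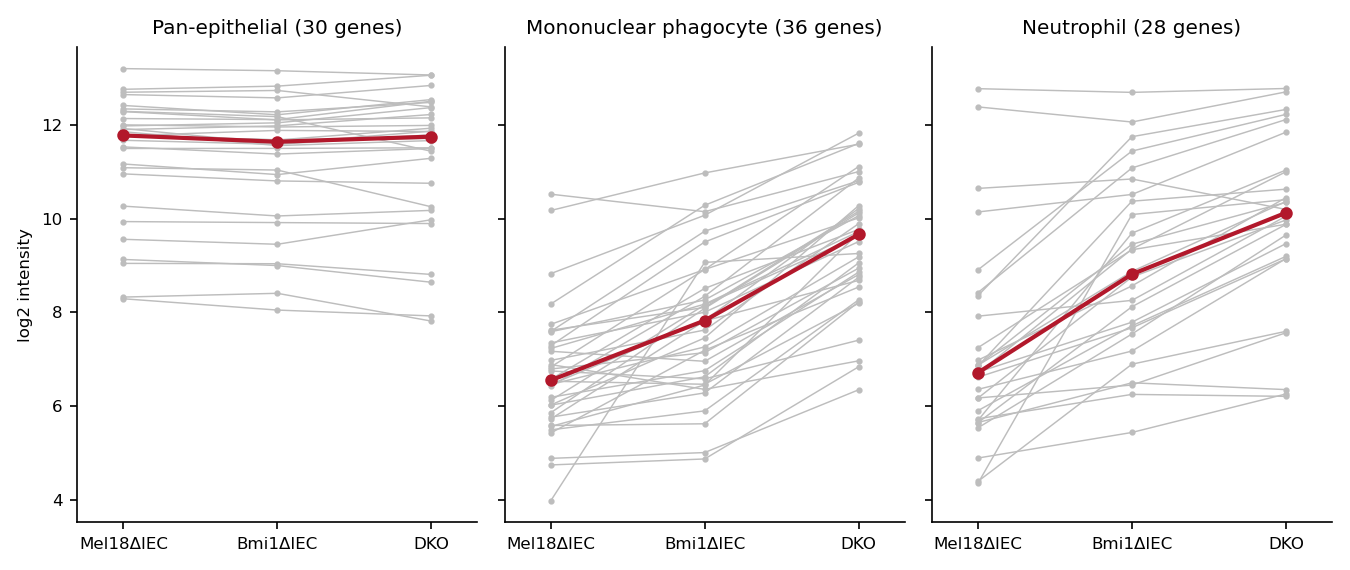
Log2 intensity of each measured pan-epithelial, mononuclear phagocyte and neutrophil gene (grey) on the 3 arrays, with the list's median in red. Epithelial medians are level, whereas both leukocyte medians are lowest on Mel18ΔIEC and highest on DKO; lines join values of 1 gene and imply no order of the arrays.

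Lymphocytes were faint and stromal genes moderately higher. Of 19 T and NK cell genes 6 were higher and 0 lower (median 0.42). At least 2-fold higher were 4 of the 19, against 7.38% of all genes. Cd3e read 7.70 on DKO, 7.37 on Bmi1ΔIEC and 7.12 on Mel18ΔIEC. Cd3g read 7.18, 5.92 and 6.17, and Cd8a 6.16, 6.11 and 6.12. Of 10 B and plasma cell genes 2 were higher and 1 lower (median 0.35), with Jchain, of secreted immunoglobulin, at 9.15, 5.90 and 7.08. Bmi1ΔIEC lay above Mel18ΔIEC for 3 of these 10 genes, with a median of -0.26 against -0.03 over all genes. Endothelial genes were higher in 16 of 21 cases and lower in 0 (median 0.79), with Pecam1 at 7.93, 6.38 and 5.96 and Cdh5 at 7.28, 6.55 and 6.02. Fibroblast genes were higher in 16 of 21 cases and lower in 1 (median 0.77), with Dcn at 10.46, 9.88 and 7.79 and Col1a1 at 8.77, 8.17 and 7.95. Their summed intensity on DKO was 2.19 times that of the single deletion mean, and that of endothelium was 1.83 times. Of 26 endothelial genes on the array 5 read under 6 on DKO, 12 on Bmi1ΔIEC and 16 on Mel18ΔIEC. For 28 fibroblast genes these counts were 7, 13 and 13, and for 30 T and NK cell genes 13, 15 and 21. Members that passed the floor on DKO alone could only differ upward. Collagens stayed closer, with 7 of 33 higher and 0 lower (median 0.18), or 12 higher after median centring and 4 against Bmi1ΔIEC alone. Of all genes 14.1%, 18% and 14.5% were higher, in the same order. Matrix metalloproteinases and inhibitors were higher in 18 of 28 cases and lower in 1 (median 0.81), led after Mmp8 by Mmp19 (8.53, 7.05 and 5.52) and Timp3 (9.36, 7.47 and 7.05).

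Markers of other sources were mixed. Of 8 analysed genes of the exocrine pancreas list 4 were higher and 1 lower (median 0.58). The summed intensity of its 20 genes on the array was on DKO 2.77 times the single deletion mean. Of these 20, 13 read under 6 on DKO, 12 on Bmi1ΔIEC and 13 on Mel18ΔIEC. The pancreatic genes Cpa1 and Cpb1 read under 6 on all 3 arrays, yet the lipase relative Pnliprp2 read 10.85 on DKO, 7.93 on Bmi1ΔIEC and 7.42 on Mel18ΔIEC, its cofactor Clps read 9.27, 7.51 and 7.70 and the trypsin inhibitor Spink1 read 12.34, 10.42 and 11.01. Of 5 genes in the Paneth cell list 2 were higher and 1 lower (median -0.16): Lyz1 (9.17, 7.38 and 7.64) and Mmp7 (8.36, 7.13 and 6.41) were higher and Pla2g2a (8.43, 10.24 and 10.31) was lower, while Defa24 and Itln1 were under the floor. The summed intensity of that list on DKO was 0.847 times the single deletion mean. The mast cell protease Mcpt1 was lower (7.70, 9.36 and 8.78) and the histamine enzyme Hdc higher (10.79, 9.21 and 7.25), with Cpa3 under the floor. Of the seminal vesicle genes, Svs2 read 4.50, 6.82 and 4.32 and Svs5 read 4.48, 6.18 and 3.89, so that both passed the floor on Bmi1ΔIEC alone. The third analysed gene of that list, Cd52, which lymphocytes also express, read 10.47, 9.29 and 8.05, and with it the summed intensity of the list was highest on DKO.

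Polycomb genes and the genes Polycomb is known to silence had list medians from -0.34 to 0.12 on the array labelled DKO, while single members differed more. Of 26 genes of Polycomb repressive complex 1 1 was higher and 5 lower (median 0.00). L3mbtl2, of a variant complex, read 6.85 on DKO, 8.18 on Bmi1ΔIEC and 8.21 on Mel18ΔIEC, its partner Pcgf6 7.62, 8.64 and 8.53, and Cbx7, a reader of methylated histone H3, 7.25, 8.00 and 7.97. Rybp was the higher one (10.28, 9.70 and 9.51). After median centring 3 were higher and 3 lower, and after cyclic loess 3 and 2. Over all genes the share higher rose from 14.1% to 18% and 17.9% under these scalings. The share lower fell from 18.9% to 14.3% and 14.1%. The catalytic Rnf2 read 8.72, 8.08 and 8.20. Of 12 genes of complex 2 0 were higher and 1 lower (median -0.10), with 2 and 3 higher after median centring and cyclic loess. The lower one was Rbbp7 (9.72, 10.59 and 10.60); Ezh2, the methyltransferase, read 9.11, 9.44 and 9.54.

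Of 20 Hox genes 6 were lower and 0 higher (median -0.34), with 4 lower after either rescaling. Of all genes 18.9% were lower, 14.3% after median centring and 14.1% after cyclic loess. Hoxd13, of the hindgut end of its cluster, read 7.70 on DKO, 9.11 on Bmi1ΔIEC and 9.46 on Mel18ΔIEC, and Hoxb13 read 10.50, 11.19 and 11.25. Of 80 listed developmental transcription factors 29 were analysed, 6 of them higher and 0 lower (median 0.12), where 14.1% of all genes were higher. At least 2-fold higher were 5 of the 29, against 7.38% of all genes. Tfap2a, a factor of neural crest and surface ectoderm, read 7.80, 4.78 and 4.43. Gata3, of T cells and several epithelia, read 8.72, 6.02 and 5.81. Pax3 (6.84, 5.34 and 5.30), Sox2 (6.24, 4.97 and 4.94) and Zic2 (6.02, 4.72 and 5.02), like Tfap2a, passed the floor on DKO alone, so they could only differ upward.

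Stress programmes were mixed. Of 32 genes of glycolysis and the hypoxia response 13 were higher and 0 lower (median 0.40). Pfkfb3, which drives glycolytic flux, read 10.44 on DKO, 8.38 on Bmi1ΔIEC and 8.15 on Mel18ΔIEC, Hmox1, heme oxygenase, 10.26, 8.54 and 7.88, and Adm, adrenomedullin, 10.50, 8.09 and 9.04. Of 28 genes of the unfolded protein and integrated stress responses 6 were higher and 5 lower (median -0.04). The cystine carrier Slc7a11 (10.56, 9.64 and 8.51) and the phosphatase subunit Ppp1r15a (9.02, 7.75 and 7.54) were higher, and the serine synthesis enzyme Phgdh (6.62, 7.95 and 7.81) lower. Heat shock genes (3 of 16 higher, 2 lower) and clock genes (2 of 14 higher, 0 lower) had medians of 0.02 and -0.01.

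DKO was above both single deletions for 4698 genes, below both for 6071 (48.8%) and between them for 1672. An array differing from the single deletions by noise alone would also lie outside their range for most genes. These counts by themselves therefore do not set DKO apart. The single deletions themselves lay at least 2-fold apart for 191 and 28 genes only. DKO can lie 2-fold from one and within 0.5 of the other only where they are more than 0.5 apart. Genes on which DKO matched one single deletion and differed from the other were therefore bound to be few. It lay within 0.5 of Bmi1ΔIEC and at least 2-fold above Mel18ΔIEC for 28 genes (0.225%), led by Ngp, by Chil3, a chitinase-like protein of myeloid cells (9.26 on DKO, 9.07 on Bmi1ΔIEC and 3.97 on Mel18ΔIEC), and by Il1r2, the decoy receptor of interleukin 1 (10.64, 10.38 and 6.86). Alox5ap and Thbs1 (11.63, 11.52 and 9.07) completed the top 5. The opposite case, with DKO near Bmi1ΔIEC and below Mel18ΔIEC, held 5 genes (0.0402%): St8sia5 (6.41, 6.75 and 8.77), Gjb5, Tmigd1, Mettl7b and Tmem64. DKO lay near Mel18ΔIEC and at least 2-fold above Bmi1ΔIEC for 21 genes (0.169%), led by the antiviral Ifit2 (10.00, 8.22 and 9.58), Tmem37, Nags, Hspa12a and Rdh9. It lay near Mel18ΔIEC and below Bmi1ΔIEC for 8 genes (0.0643%), led by Svs2, the keratin Krt17 (6.21, 7.56 and 6.01), Penk, Apol10a and Ocel1.

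The single deletions were also ordered within the differing genes. Among the 918 higher genes Bmi1ΔIEC lay above Mel18ΔIEC for 629 and below it for 288. Among the 814 lower genes it lay above for 306 and below for 508. Over all genes analysed the median of Bmi1ΔIEC minus Mel18ΔIEC was -0.03, so part of the order among lower genes is shared by all genes. The single deletions enter both this order and the difference, so the counts describe the 3 arrays and are no independent support. Set against Bmi1ΔIEC alone, DKO exceeded it by 2-fold for 834 genes (6.7%) and fell short for 757 (6.08%), and against Mel18ΔIEC alone 964 (7.75%) and 916 (7.36%). Both of these share the DKO array.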

How the data were processed

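RNA was measured on Affymetrix Mouse Gene 1.0 ST arrays, 1 per genotype. The deposited values are linear intensity values per probe set. Per the submitters' processing notes, RMA was run in Affymetrix Expression Console; that method subtracts background and equalises arrays, which can level differences shared by most genes. An intensity has no read depth. Of 35556 probe sets 21797 had 1 gene symbol in the platform annotation, 1613 had several and 12146 were not listed. Only the first were named, the brightest per gene was kept, and 999 genes had several.

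Intensities were taken to log2, and DKO minus the mean of both single deletions was computed in Python 3.11.15 with pandas 2.3.3; cyclic loess used limma 3.58.1 in R 4.3.3. Genes count as differing at 2-fold and list members at 1.5-fold. No test was run. The computation was tested on simulated data. Named are 15 genes at each end of the ranking that lie 2-fold or more beyond each single deletion, up to 5 members of a list on the side of its count and 3 on the other, 5 genes for each case of DKO near 1 single deletion, and defining cell markers; unnamed gene models are left out of the rankings. The members and lists were chosen with earlier results of these data known. Promoters came from RefSeq (GRCm38.p6): 22862 of 27025 listed genes had 1 start. Alternatives changed the filter, scaling, log scale, probe sets, threshold and the single deletion used.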

Additional observations from a re-analysis of the deposited data

Results flagged for a closer look

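Probe sets without a gene symbol of their own stayed outside the comparison. Of 6338 such probe sets above the same floor, 338 were at least 2-fold higher on DKO than the mean of both single deletions and 226 were at least 2-fold lower. They were noted because they carry signal that the named genes do not cover. Of the 12441 named genes analysed, 918 (7.38%) were higher and 814 (6.54%) lower by the same measure. Probe sets without a symbol were thus called less often than named genes on both sides.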

How the results depend on the processing

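With 1 array per genotype nothing here has a replicate error. No paired analysis was possible because each genotype has 1 array. The 918 higher genes became 1756 at a threshold of 1.5-fold and 423 at 3-fold. The 814 lower genes became 2352 and 109 at these thresholds, 507 after cyclic loess and 542 with 32 added to the intensity. Leaving out 1 single deletion array gave 834 to 964 higher and 757 to 916 lower genes; without Mel18ΔIEC 750 higher and 698 lower genes were shared with the comparison to both, and without Bmi1ΔIEC 851 and 763. The other alternatives kept both counts within 1.5 times. Of the named genes past 2-fold, Svs2 turned sign, from -1.07 to 0.18 without Bmi1ΔIEC, and was -2.32 without Mel18ΔIEC. Smaller differences also turned without Bmi1ΔIEC: Krt17 from -0.58 to 0.20, Penk from -0.53 to 0.21, Svs5 from -0.55 to 0.59, Ppbp from -0.37 to 1.03 and Pcgf2 from 0.03 to -0.03. Over lists and alternatives, 536 medians moved by less than the spread of the single deletions scaled to 1 array (0.150) and 155 by more. No list median past 1.5-fold turned sign under the alternatives run, but smaller ones did, such as the seminal vesicle median, from -0.55 to 0.59 without Bmi1ΔIEC, and the retinoid median, from -0.15 to 0.04 after cyclic loess. Of 58 differing genes with several probe sets above the floor, another probe set fell short of 2-fold or was opposite for 20.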

Other observations

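Genes on none of the lists, chosen after their values were seen, made up 593 of the 918 higher and 567 of the 814 lower genes. On the higher side Acod1, which makes the antimicrobial metabolite itaconate in activated macrophages, read 12.23 on DKO, 10.58 on Bmi1ΔIEC and 8.26 on Mel18ΔIEC. Ms4a4c, a membrane protein of leukocytes, read 9.74, 6.39 and 6.22. Igf2bp3, an RNA-binding protein of fetal tissue, read 7.98, 4.73 and 4.73, so that both single deletions were under the floor and equal. Gpx3, the secreted glutathione peroxidase, read 10.10, 7.85 and 7.31, and Tnfaip6, a matrix protein of inflamed tissue, 8.41, 6.08 and 4.71. The part of leukocytes in these values was not tested.

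Of the lower unlisted genes, 5 picked by eye are given as single genes, with no count of a group behind them. Slc7a5, the large neutral amino acid carrier, read 8.65 on DKO, 10.38 on Bmi1ΔIEC and 10.59 on Mel18ΔIEC, and Slc1a4, a carrier of small neutral amino acids, 6.29, 8.30 and 8.42. Cad, which starts pyrimidine synthesis, read 7.16, 8.66 and 8.96. Shmt2, the mitochondrial serine hydroxymethyltransferase, read 8.00, 9.61 and 9.63, and Fpgs, which retains folate in cells, 6.46, 8.50 and 8.40. The single deletions lay close together for all 5 of these genes.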
